A study of Mus musculus with 47 samples.

Results

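The comparison described here set the nucleosome profiles of Bmal1-/- mouse livers taken at ZT06 (6 h after lights on) against those of wild-type livers, at sites bound by CLK:BMAL1. It used 8 of the 47 MNase-seq libraries of the study, 4 from wild-type mice (replicates 11, 12, 26 and 27) and 4 from Bmal1-/- mice (replicates 5, 8, 9 and 10), chosen by the genotype and the time in their labels. All 8 mice were labelled as adult C57BL/6 animals of 3 to 6 months, held under a cycle of equal light and dark for at least 2 weeks, and genotype was the only labelled difference between the groups. The labels do not describe the Bmal1 allele or the cells that lack it. The data hold no expression values, so the loss of Bmal1 and the makeup of the tissue were not checked here. The sites were 3217 ChIP-seq peaks on mm9, and the deposited profiles are averages over 27 sets of these peaks, with gene body peaks outside introns added here by subtraction to make 28 sets.

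BMAL1 pairs with CLOCK (CLK), and the pair binds E-box elements and drives the transcription of clock genes such as the Per and Cry genes, whose proteins in turn repress it. In mouse liver this binding is known to be strongest around the middle of the light period, the time of day studied here. Micrococcal nuclease (MNase) digests DNA that is not wrapped in a nucleosome, so that a site from which nucleosomes are removed or where they are fragile appears as a trough in the MNase signal.

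The measure of this trough was the relative central signal: the mean signal within 150 bp of the middle of the 3000 bp window, in percent of the mean signal beyond 1000 bp from the middle of the same library. A value near 100% means no trough, and a lower value means a deeper one. Differences between genotypes are in percentage points. Each library is 1 mouse, so the errors are spreads between mice. A central position averaged over all peaks drew on about 29952 to 44614 fragments, which gives a counting error of 0.473% to 0.578%. In the first of the 10 deciles into which the authors cut the peak list it drew on 2479 to 3903 fragments, with an error of 1.60% to 2.01%. These errors cover counting alone. Relative depth, with the shallowest of the 8 libraries at 1, averaged 1.13 ± 0.155 among the Bmal1-/- mice, against 1.41 ± 0.228 among the wild-type mice (SD, n = 4 each).

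The 4 Bmal1-/- mice fell into pairs. Replicates 9 and 10 had a higher central signal than replicates 5 and 8 in 28 of 28 sets, raised shoulders on both sides of the trough, and the lowest relative depths of the 8 libraries, at 1 and 1.02. The part of depth in this was not tested. The main results at ZT06 are therefore also given without these 2 mice, a choice made after the data were seen. With 2 Bmal1-/- mice left, the exact test has 15 assignments and allows no p below 0.0667. Leaving out mice cannot make separate groups overlap, so for groups without overlap only the size of the difference is informative there.

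The trough at CLK:BMAL1 sites was shallower in the livers that lack Bmal1. Averaged over all peaks, wild-type replicates 11, 12, 26 and 27 had a relative central signal of 65.97%, 63.03%, 64.9% and 67.2%. It was 70.5%, 72.6%, 84.4% and 81.7% in Bmal1-/- replicates 5, 8, 9 and 10. The groups did not overlap, and the highest wild-type mouse lay 3.31 points below the lowest Bmal1-/- mouse. The means were 65.3% ± 1.77 and 77.3% ± 6.79 (SD, n = 4 each), a difference of 12.0 percentage points (SE 3.51; exact two-sided permutation p = 0.0286, the smallest that 4 against 4 allow). A trough 34.7 points deep in wild type was thus 22.7 points deep in Bmal1-/- livers, 65.4% of the wild-type depth. Without replicates 9 and 10 the difference was 6.27 points, with Bmal1-/- replicates 5 and 8 still above each wild-type mouse (exact permutation p = 0.0667, the smallest possible). With any 1 wild-type mouse left out the exact p rose to 0.0571, at differences of 11.3 to 12.7 points.

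**Figure D1:**
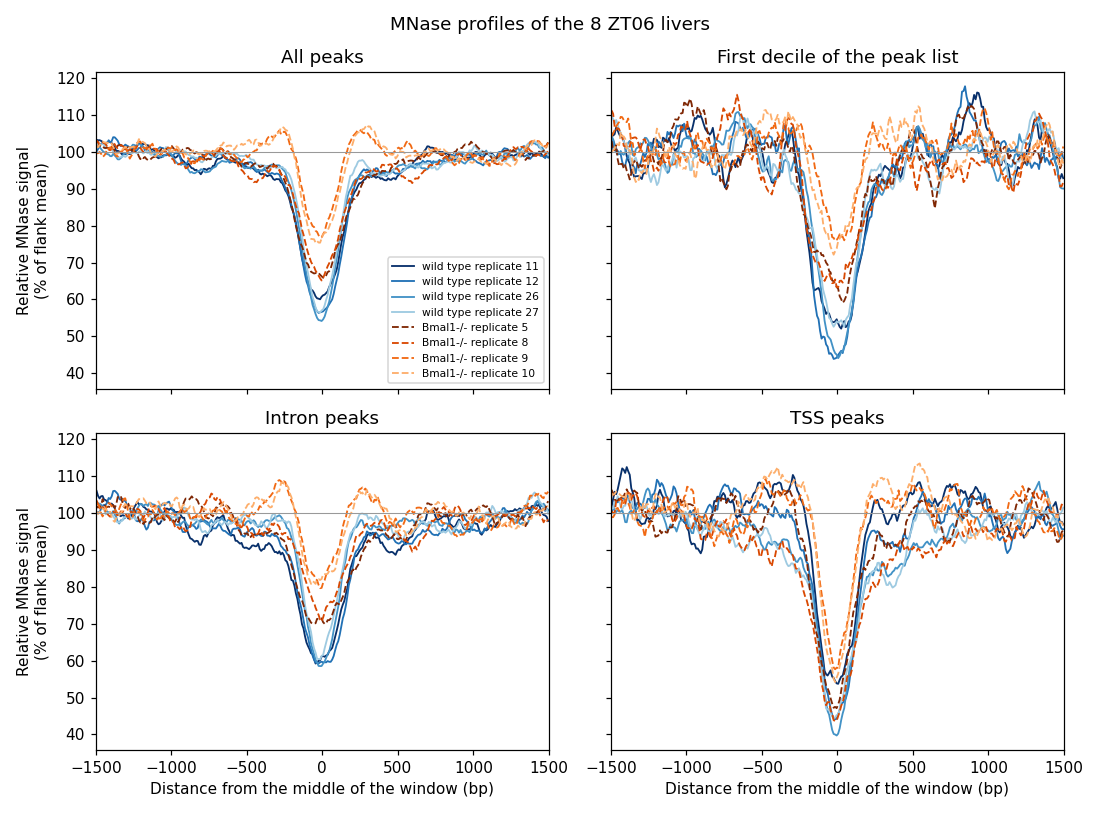
Relative MNase signal (percent of the flank mean of the same library, vertical axis) against distance from the middle of the window (bp, horizontal axis), 1 line per mouse, wild type in solid blue and Bmal1-/- in dashed orange. In all peaks, the first decile and intron peaks every Bmal1-/- trough bottoms out above every wild-type trough, while in TSS peaks the lines of the genotypes cross; replicates 9 and 10 rise above 100% beside the trough.

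The mean difference was largest in the middle of the trough, and in the bands from 150 to 500 bp it rested on replicates 9 and 10. From 0 to 50 bp from the middle of the all-peak profile, signal reached 72.5% ± 6.36 in Bmal1-/- against 58.2% ± 2.29 in wild-type mice (SD, n = 4 each), 14.3 points more. The difference was 10.9 points from 50 to 150 bp, 6.12 from 150 to 250 bp, 4.13 from 250 to 500 bp and 1.30 from 500 to 1000 bp. The inner 2 bands had no overlap between groups (exact permutation p = 0.0286 each, adjusted p = 0.0714 over the 5 bands), so none of the 5 bands passed after adjustment. That p is the smallest possible, so 2 separate bands among 5 cannot pass, whatever the size of their difference. From 150 to 250 bp the values overlapped (exact permutation p = 0.343). With replicates 5 and 8 as the Bmal1-/- mice, the 5 differences from the middle outward were 8.81, 5.00111, -1.09, 0.149 and 0.539 points. The inner 2 bands were still without overlap, and the outer 3 overlapped (exact permutation p = 0.0667, 0.133, 0.667, 0.867 and 0.6 in the same order). The small difference from 500 to 1000 bp kept 41.6% of its size, and that from 50 to 150 bp kept 45.9%. Leaving out replicate 9 alone took the 150 to 250 bp band to 3.58 points, and leaving out replicate 10 alone took it to 3.85 and the 250 to 500 bp band to 2.66. In the first decile the inner 2 bands differed by 20.2 and 17.8 points, and the outermost band differed by -1.15 points (exact permutation p = 0.257). The mean difference of the 4 mice was thus smaller with distance in both peak sets. Scaling makes the genotypes equal on average beyond 1000 bp, so a decline towards that distance is partly built in.

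Position by position, the difference covered 1 continuous stretch over the middle. With limma, run on the 300 positions of that profile as log2 relative signal with all 47 libraries sharing 1 estimate of the spread, 230 bp were higher in Bmal1-/- at adjusted p under 0.05 (7.67% of positions) and 0 bp were lower (0%). Without adjustment, 790 bp passed in either direction. The largest difference lay 35 bp to the left of the middle, with a log2 difference of 0.33 (SE 0.0624, limma adjusted p = 0.000282), a fold of 1.26. Neighbouring positions share fragments, so the calls are given as widths. Counted without a model, the 4 Bmal1-/- mice lay above the 4 wild-type mice over 380 bp (12.7%) and below them over 0 bp (0%), with 210 bp of the 380 bp within 150 bp of the middle. With replicates 9 and 10 left out, limma called 0 bp (160 bp unadjusted). Without replicate 5 it called 710 bp and without replicate 8 it called 660 bp.

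The floor of the trough lay higher in every Bmal1-/- mouse than in any wild-type mouse, while its width overlapped between the groups. The lowest smoothed value of the all-peak profile was 60.4%, 56.6%, 54.5% and 56.8% in wild-type replicates 11, 12, 26 and 27, and 66.3%, 65.998%, 77.4% and 75.7% in Bmal1-/- replicates 5, 8, 9 and 10. It lay within 35 bp of the middle in all 8 mice. The groups did not overlap (difference 14.2 points, SE 3.27; exact permutation p = 0.0286, adjusted p = 0.0857 over 3 measures of shape). That exact p is the smallest possible, and a single measure among 3 at that p cannot pass after adjustment. For replicates 5 and 8 alone the floor differed by 9.03 points, still without overlap (exact permutation p = 0.0667, the smallest possible). Trough width, taken midway between its floor and the flank level, averaged 282.1 ± 60.7 bp in Bmal1-/- and 292.1 ± 36.1 bp in wild-type mice (SD, n = 4 each; difference -10.1 bp, SE 35.3, exact permutation p = 0.771). The Bmal1-/- mice held both the widest trough, 359 bp in replicate 5, and the narrowest, 223.2 bp in replicate 9. The sign of the width difference turned with the mice used: it was 37.6 bp without replicates 9 and 10, and 1.76 bp without wild-type replicate 11.

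The shoulders beside the trough separated the Bmal1-/- mice from each other. Shoulder height, the mean of the highest values from 100 to 500 bp on each side, was 105.4% and 106.5% of the flank in replicates 9 and 10, against 96.9% and 96.2% in replicates 5 and 8 and 94.7% to 98.1% in wild type. In replicates 9 and 10 these maxima lay within 300 bp of the middle, on both sides. The genotype difference was 5.02 points (SE 2.83; exact permutation p = 0.143), and 0.298 points without replicates 9 and 10. Intron peaks had the same division, with shoulders of 107.5% and 106.6% in replicates 9 and 10 and of 92.9% to 99.3% in the other 6 mice. The gap was narrower in the first decile, at 106.4% and 109.3% against at most 104.3% in the other mice. In TSS peaks it was 107.6% and 110.6% against at most 107.1%. Some maxima lay at 495 bp, the outer edge of the range searched.

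The genotype difference was larger at peaks high in the peak list, for which no source used here gives the ranking. In the first decile, relative central signal was 57.6%, 51.7%, 55.6% and 60.3% in wild-type replicates 11, 12, 26 and 27, and 67.999%, 68.3%, 82.7% and 80.7% in Bmal1-/- replicates 5, 8, 9 and 10. The groups did not overlap, and the means of 56.3% ± 3.65 and 74.9% ± 7.88 (SD, n = 4 each) differed by 18.6 points (SE 4.34; exact permutation p = 0.0286). The trough of the first decile in Bmal1-/- livers had 57.4% of its wild-type depth. Replicates 5 and 8 alone gave a difference of 11.8 points, and the groups still did not overlap (exact permutation p = 0.0667, the smallest possible).

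In the last decile the groups overlapped. Relative central signal there was 72.3%, 68.6%, 69.9% and 70.4% in wild-type replicates 11, 12, 26 and 27, and 67.1%, 69.7%, 84.6% and 90.996% in Bmal1-/- replicates 5, 8, 9 and 10. Replicates 9 and 10 lay above every wild-type mouse, and replicate 5 lay below all of them. The difference was 7.82 points (SE 5.83; exact permutation p = 0.4), and without replicates 9 and 10 it was -1.90 points.

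The slope over the 10 deciles gives this gradient as 1 value per mouse. In wild type the slope of the central signal was 0.850, 1.32, 0.926 and 1.11 percentage points per decile in replicates 11, 12, 26 and 27, and the first decile had the deepest trough in each of these mice. In Bmal1-/- replicates 5, 8, 9 and 10 the slopes were -0.471, 0.354, 0.0333 and 0.123. Each Bmal1-/- slope was below each wild-type slope, and the means of 1.05 ± 0.208 (wild type) and 0.00987 ± 0.348 (SD, n = 4 each) differed by -1.04 points per decile (SE 0.203; exact permutation p = 0.0286). With any 1 mouse left out the difference ran from -1.15 to -0.879 and the exact p was 0.0286 each time. With the centre widened to within 250 bp it was smaller, at -0.581 (exact permutation p = 0.0286). With replicates 5 and 8 alone it was -1.11 (exact permutation p = 0.0667, the smallest possible), so the gradient differed as much in the other 2 Bmal1-/- mice. The first decile holds wider ChIP-seq peaks (median 399 bp against 309 bp in the whole list) and more peaks at transcription start sites (TSS; 23.3% against 18.1%). The part of these features in the slope was not tested.

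**Figure D2:**
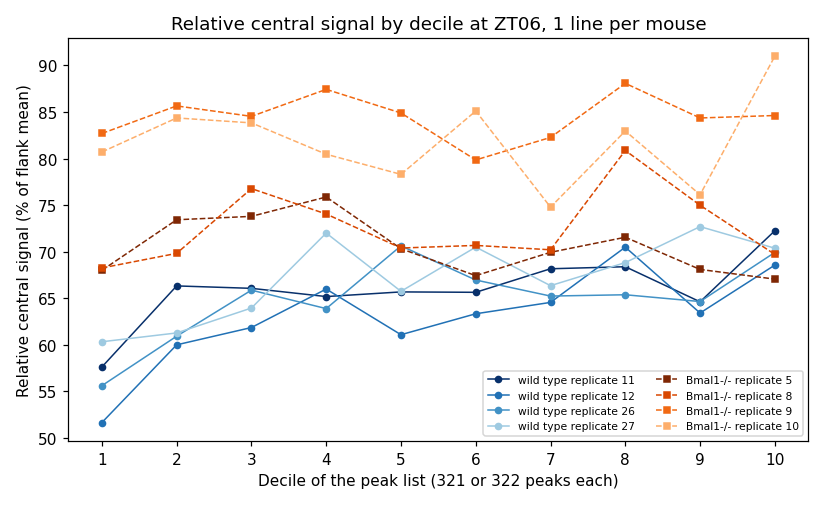
Relative central signal (percent of the flank mean, vertical axis) by decile of the peak list (horizontal axis), 1 line per mouse, wild type in solid blue and Bmal1-/- in dashed orange. The wild-type lines climb from 51.7% to 60.3% in the first decile to 68.6% to 72.3% in the last, the Bmal1-/- lines have no common slope, and replicates 9 and 10 run above replicates 5 and 8 in all 10 deciles.

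Across the peak sets the direction was the same. Mean relative central signal was higher in Bmal1-/- mice in 28 of 28 sets, by 7.43 to 19.7 points with a median of 13.2. After adjustment over the 28 sets, 20 passed (adjusted exact p = 0.04 each), which are 71.4% of those tested and are the 20 sets without overlap between the groups. The sets share peaks and all share the 8 mice, so the count is not one of independent results. With replicates 5 and 8 alone, 26 of 28 sets had a higher mean in Bmal1-/- and 20 had no overlap. These 20 are the sets without overlap before, and leaving out mice could not change either outcome in them. With any 1 wild-type mouse left out, 0 sets passed the exact test after adjustment and 7 to 10 did before it. The smallest p was then also 0.0286, and 7 to 10 of 28 sets at that p are too few for any to pass. The 20 separate sets stay separate when a mouse is left out, so the 0 does not show a loss of separation.

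By decile, 6 of 10 passed: deciles 1, 2, 3, 4, 7 and 8. Their differences ran from 8.22 points in decile 7 to 18.6 in decile 1. The deciles that did not pass were 5, 6, 9 and 10, with differences of 10.2, 9.16, 9.55 and 7.82 points. In these deciles 2, 3, 3 and 2 of the 4 Bmal1-/- mice lay above every wild-type mouse. Deciles do not share peaks, so this order of sizes, with the 3 largest differences in the first 3 deciles, is not set by shared peaks. All deciles share the same mice, and overlap between windows of peaks in different deciles was not tested.

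Positions of all 28 sets were also fitted in 1 table with limma, a fit added after the data were seen. Of 8400 set-by-position values, 470 were higher in Bmal1-/- (5.60%) and 1 was lower (0.0119%) at adjusted p under 0.05. The calls of the first decile covered 280 bp and those of decile 2 covered 240 bp, all within 150 bp of the middle. Decile 5 had 80 bp. Deciles 6, 7 and 10 had 0 bp (380, 220 and 100 bp before adjustment), and decile 9 had 10 bp, away from the middle. Leaving out replicates 9 and 10, this fit called 0 positions in either direction. Set by set, the position calls thus lay mostly where the trough itself is.

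**Figure D3:**
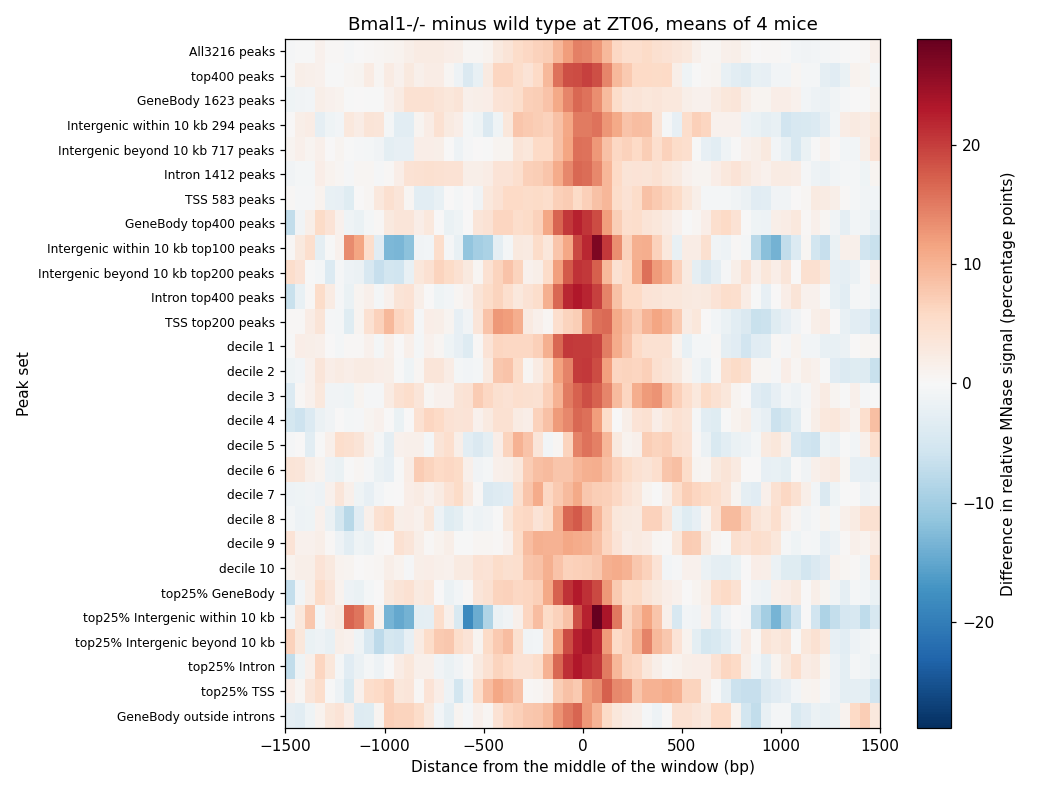
Bmal1-/- minus wild type in relative MNase signal (percentage points, colour, means of 4 mice) for 28 peak sets (rows) by distance from the middle of the window (bp, horizontal axis, 50 bp bins). A red column runs through the middle of most rows, strongest in most sets of top peaks and the first deciles. It is weakest in the row of all TSS peaks and in deciles 6, 7 and 10. In the rows of top TSS peaks it is stronger to the right of the middle than to the left. Small sets are noisier outside the column.

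By genomic class, intron peaks showed the genotype difference and TSS peaks did not pass the test. In the 1412 intron peaks, relative central signal was 65.1%, 64.02%, 68.3% and 71.03% in wild-type replicates 11, 12, 26 and 27, and 72.8%, 77.7%, 86.6% and 85.2% in Bmal1-/- replicates 5, 8, 9 and 10. The groups did not overlap, and the difference was 13.5 points (SE 3.61; exact permutation p = 0.0286). For replicates 5 and 8 alone it was 8.15 points, still without overlap (exact permutation p = 0.0667, the smallest possible). With any 1 wild-type mouse left out the exact p was 0.0571. The separation was not confined to the trough. From 500 to 1000 bp the intron profiles differed by 2.57 points without overlap (exact permutation p = 0.0286, adjusted p = 0.0714 over the bands). From 50 to 150 bp they differed by 12.0 points with overlap (exact permutation p = 0.0571). All Bmal1-/- mice lay above all wild-type mice over 190 bp within 150 bp of the middle and over 310 bp beyond 500 bp.

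TSS peaks, which lie at gene promoters, had the deepest wild-type trough of the 5 classes. In the 583 TSS peaks, relative central signal was 62.3%, 55.9%, 53.8% and 55.2% in wild-type replicates 11, 12, 26 and 27, and 59.8%, 53.8%, 73.1% and 70.3% in Bmal1-/- replicates 5, 8, 9 and 10. Replicates 9 and 10 lay above every wild-type mouse, while replicates 5 and 8 lay within or at the lower edge of the wild-type range. The difference was 7.43 points, the smallest of the 28 sets (SE 4.89; exact permutation p = 0.257). Without replicates 9 and 10 it was -0.0261 points (exact permutation p = 0.933). In the limma table TSS peaks had 0 bp called (110 bp unadjusted). The top 200 TSS peaks had 110 bp called there and the top 25% of TSS peaks had 60 bp, all higher in Bmal1-/-. Central signal in these top sets differed by 10.6 and 11.1 points, with overlap between the groups (exact permutation p = 0.143 and 0.171).

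The difference between the classes was not resolved. Intron minus TSS relative central signal, taken within each mouse so that library scale cancels, averaged 16.3 ± 5.11 points in Bmal1-/- against 10.3 ± 6.04 in wild-type mice (SD, n = 4 each). The genotype difference of 6.03 points (SE 3.96) was within the spread between mice (exact permutation p = 0.257). It was 10.2 points with the centre narrowed to within 50 bp of the middle (exact permutation p = 0.0286) and 4.11 with it widened to within 250 bp (exact permutation p = 0.514). It was 3.50 points without Bmal1-/- replicate 8, 3.53 without wild-type replicate 11 and 8.17 without Bmal1-/- replicates 9 and 10 (exact permutation p = 0.429, 0.514 and 0.267). Intron and TSS peaks were thus not shown to differ in their response at the main setting.

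The other 3 classes, named in the list by gene body or by a distance of 10 kb, lay near the intron peaks. The difference was 13.02 points (SE 4.34) in the intergenic class within 10 kb and 12.1 points (SE 3.29) in the intergenic class beyond 10 kb, with no overlap between groups in either (exact permutation p = 0.0286 each, and 0.0571 to 0.0857 with any 1 wild-type mouse left out). In gene body peaks outside introns it was 12.2 points (SE 5.12), with 3 of 4 Bmal1-/- mice above every wild-type mouse (exact permutation p = 0.0571, and 0.0286 without replicate 8). Without replicates 9 and 10 these differences were 6.89 and 7.17 points in the intergenic classes, without overlap (exact permutation p = 0.0667 each, the smallest possible). In gene body peaks outside introns the difference was then 5.10 points, with overlap (exact permutation p = 0.333). Of the 5 classes, 3 passed after adjustment over all sets.

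**Figure D4:**
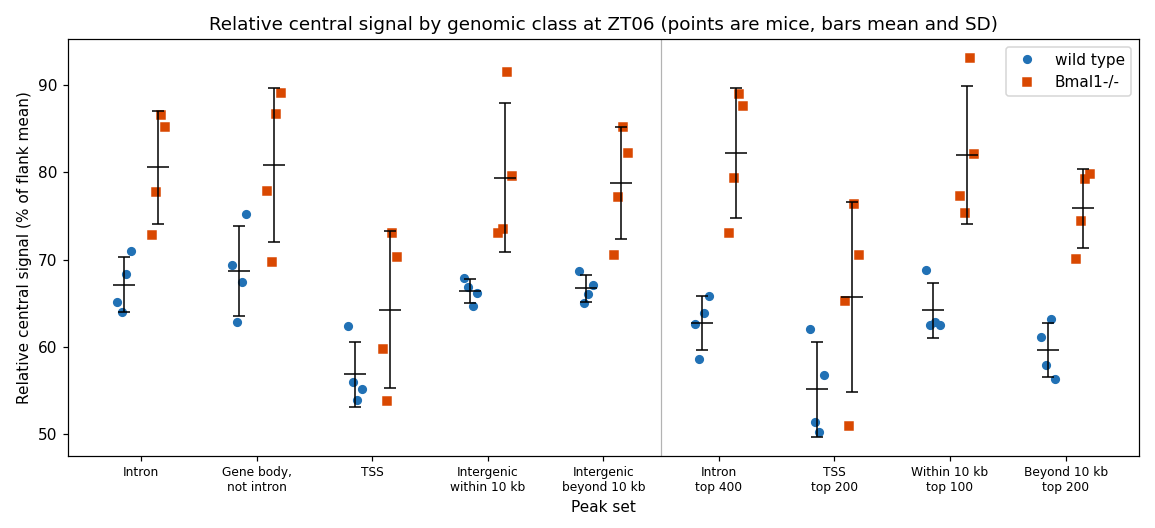
Relative central signal (percent of the flank mean, vertical axis) by genomic class (left of the grey line) and in the top peaks of 4 classes (right), with 1 point per mouse, wild type as circles and Bmal1-/- as squares; long bars are means and whiskers are SD. The genotypes are separate in intron and both intergenic classes and overlap in TSS peaks and in gene body peaks outside introns.

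Among intron peaks, those at the top of the list differed more than the rest. The largest difference of the 28 sets was in the top 25% of intron peaks, with a relative central signal of 82.1% ± 7.77 in Bmal1-/- against 62.4% ± 2.87 in wild-type mice (SD, n = 4 each), a difference of 19.7 points (exact permutation p = 0.0286, and 0.0571 without wild-type replicate 12). It was 13.1 points without Bmal1-/- replicates 9 and 10, still without overlap (exact permutation p = 0.0667). The trough there had 47.7% of its wild-type depth. The top sets share most of their peaks within a class, so each was set against the remaining peaks of its class, obtained by subtraction, in 5 tests added after the data were seen.

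The top 400 intron peaks lay below the other 1012 intron peaks in every wild-type mouse, at -3.52, -7.55, -6.22 and -7.26 points of central signal in replicates 11, 12, 26 and 27. They lay above them in every Bmal1-/- mouse, at 0.348, 2.22, 3.35 and 3.41 points in replicates 5, 8, 9 and 10. The means were -6.14 ± 1.84 and 2.33 ± 1.43 (SD, n = 4 each). This change of 8.47 points (SE 1.16) separated all 8 mice (exact permutation p = 0.0286, adjusted p = 0.0476 over the 5 tests). With any 1 mouse left out it ran from 7.998 to 9.34, at an exact p of 0.0286 each time. Without replicates 9 and 10 it was 7.42 points (exact permutation p = 0.0667, the smallest possible). The extra depth of the trough at top intron peaks in wild type was thus not present in any of the 4 Bmal1-/- mice.

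For all peaks, the top 400 against the other 2816 gave a change of 6.35 points (exact permutation p = 0.0286, adjusted p = 0.0476, and 0.0571 unadjusted without wild-type replicate 12 or 26). For intergenic peaks within 10 kb it was 7.41 points (exact permutation p = 0.0286, adjusted p = 0.0476, but 0.0571 unadjusted without any 1 Bmal1-/- mouse and 0.143 with the centre within 50 bp). Beyond 10 kb it was 5.86 points (exact permutation p = 0.0571), and at TSS it was 4.92 points (exact permutation p = 0.2). All 5 changes had the same sign. Of the 3 that passed, the intron change alone also passed with every other centre, every other flank and any 1 mouse left out, before adjustment. Outside the top sets the genotype difference was smaller. It was 11.2 points over the 2816 peaks outside the top 400 (SE 3.44; exact permutation p = 0.0286) and 10.4 over the rest of the intergenic peaks within 10 kb (p = 0.0286 by the same exact test). The rest of the intron peaks, of the intergenic peaks beyond 10 kb and of the TSS peaks differed by 11.1, 10.4 and 5.72 points, with overlap between the groups (exact permutation p = 0.0571, 0.0857 and 0.314). These 5 values were not adjusted for the number of tests. Without replicates 9 and 10 the 5 differences, in the order given, were 5.58, 4.07, 6.08, 5.03 and -1.62 points.

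On the authors' own scale the genotypes were set apart more in the centre than in the flank. Central signal of the all-peak profile was 4.65, 4.23, 4.42 and 4.46 signal units in wild-type replicates 11, 12, 26 and 27, and 5.01, 4.63, 5.61 and 5.41 in Bmal1-/- replicates 5, 8, 9 and 10. Of the Bmal1-/- mice, replicate 8 alone fell within the wild-type range. The difference was 0.725 units (SE 0.234; exact permutation p = 0.0571, and 0.382 units with p = 0.133 without replicates 9 and 10), while flank signal differed by -0.113 units (SE 0.178; exact permutation p = 0.486). In the first decile central signal was 3.87 ± 0.264 and 5.13 ± 0.554 units (SD, n = 4 each), without overlap (difference 1.26, exact permutation p = 0.0286, and 0.848 without replicates 9 and 10), and flank signal differed by -0.0136 units (exact permutation p = 0.971).

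The genotype difference at ZT06 was set against that at the 5 other times of the study, each with its own mice. Over all peaks, the 12.0 points at ZT06 compared with 10.46 at ZT02, 9.05 at ZT10, 9.82 at ZT14, 3.57 at ZT18 and 8.14 at ZT22 (n = 4 per genotype, and 3 Bmal1-/- mice at ZT22). The value at ZT06 was the largest of the 6 with all mice, but without Bmal1-/- replicate 9 at ZT06 it was below those at ZT02 (by -0.807 points as ZT06 minus ZT02) and ZT14 (-0.166). It exceeded that at ZT18 by 8.46 points with an exact permutation p of 0.201, and the other 4 times by less. None of these tests passed after adjustment over the 5 times (adjusted p = 0.838 each). The test shuffled genotype within each time, so its null is no genotype difference at either time. It therefore cannot decide whether the genotype difference was equal between times.

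In the first decile, with all mice, ZT06 again had the largest difference and ZT18 the smallest. With the centre within 50 bp the difference at ZT02 was larger (ZT06 minus ZT02 -0.361 points). The 18.6 points at ZT06 compared with 14.3 at ZT02, 15.9 at ZT10, 10.8 at ZT14, 1.86 at ZT18 and 12.0 at ZT22. The difference between ZT06 and ZT18 was 16.8 points (exact permutation p = 0.0445 by the same shuffling within times, adjusted p = 0.222). It did not pass after adjustment. Mean central signal of the first decile at ZT06 minus that at ZT18 was -14.7 points in wild type and 2.04 points in Bmal1-/-. Against the other 4 times ZT06 differed by -15.3 to -2.94 points in wild type and by -8.71 to -0.278 points in Bmal1-/-. The wild-type mean was thus lowest at ZT06 among the 6 times, and the Bmal1-/- mean was lowest at ZT18.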

How the data were processed

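MNase-seq signal from 47 mouse liver libraries was used as the authors deposited it: a scaled coverage averaged over sets of peaks, 1 value per 10 bp. CASAVA 1.7, Bowtie and mm9 are named per the submitters' processing notes; the target of the scaling, the fragment length and the treatment of duplicates were not stated there. A second deposited file gives the mm9 position and the class of each peak; the reference at hand was of another build and no symbols were paired, so no sequence or gene is named.

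Samples were grouped by their titles, and libraries titled BM were read as Bmal1-/-. Relative signal and its tests were computed with Python 3.11.15 and numpy 2.4.6: exact two-sided permutation of the difference of means, over 70 assignments, with Benjamini-Hochberg adjustment at 0.05. limma 3.58.1 in R 4.3.3 fitted log2 relative signal, with an eBayes trend and 12 genotype by time groups, tested on simulated data first. Profiles were smoothed over 5 positions for trough shape alone. Depth was read from whole multiples of the signal of 1 fragment (tolerance 0.1 of that step). In the smallest set, of 74 peaks, 100% of the values were whole in each of the 8 libraries, but the step was fitted to that set among others. The lowest share of whole values in a library was 79.7% for the all-peak set and 91.3% for the gene body set.

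The peak sets, lists and tests were chosen with earlier results of these data known. All peaks, the first and last decile, intron and TSS peaks were to be given for every mouse, with the sets of largest and smallest difference named and every set counted. Alternatives were other centres and flanks, medians, the authors' scale, other smoothing, a filter on low positions, a pseudocount, no trend, a replicate block and each mouse left out.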

Additional observations from a re-analysis of the deposited data

Results flagged for a closer look

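Wild-type replicate 11 stood apart from the other 3 wild-type mice in the top 100 intergenic peaks within 10 kb, with a relative central signal of 68.8% and the nearest mouse at 62.8%. It did so again in the top 25% of that class, at 70.5% against 64.3%; these sets share peaks. In decile 9, wild-type replicate 27 had 72.7%, with the nearest mouse at 64.6%. Bmal1-/- replicate 8 had an intron minus TSS difference of 23.9 points, with the next mouse at 14.8. These are 4 of 94 groups of 4 mice examined, and chance alone marks about 1 group in 20.

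The genotype difference in the first decile was 16.8 points larger at ZT06 than at ZT18. With genotype shuffled within each time the exact permutation p was 0.0445 (adjusted p = 0.222 over 5 times). The null of that test is no genotype difference at either time, so it cannot decide whether the genotype difference was equal at both.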

How the results depend on the processing

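The direction of the genotype difference over all peaks and in the first decile was the same under every alternative run. Over all peaks it was 9.66 points with the centre within 250 bp and 0.725 signal units on the authors' scale (exact permutation p = 0.0571 each), and 9.65 to 14.3 with each mouse left out. The count of 20 sets became 0 with the centre within 250 bp and 0 to 21 with each mouse left out. It was 0 without any 1 wild-type mouse, with 7 to 10 at an unadjusted exact p under 0.05, too few for any to pass at the smallest p possible. A limma fit across the sets called 25, with the same SE of 4.21 in every set. That fit took sets that share peaks and mice as separate information on the spread, so its count is not comparable with the exact one. Intron minus TSS was 10.2 points with the centre within 50 bp, 4.11 within 250 bp and 3.50 to 7.87 with each mouse left out. The slope was -0.581 with the centre within 250 bp.

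Without replicates 9 and 10, the difference was 6.27 over all peaks, 11.8 in the first decile, -1.11 per decile for the slope, -0.0261 in TSS peaks, -1.62 in those outside the top 200 and -1.90 in the last decile, -1.09 in the 150 to 250 bp band and 37.6 bp for trough width, and limma called 0 bp; in the table of all sets it called 0 higher and 0 lower positions. With each mouse left out, the 5 distance bands, from the middle outward, ran from 12.2 to 16.2, 8.39 to 13.4, 3.58 to 9.13, 2.66 to 5.53 and 0.927 to 1.95 points; the inner 2 and the outermost passed after adjustment without Bmal1-/- replicate 8. Trough width ran from -35.7 to 9.54 bp, ZT06 minus ZT02 over all peaks from -0.807 to 3.83 and ZT06 minus ZT14 from -0.166 to 4.47 points. In the first decile ZT06 minus ZT02 was -0.361 with the centre within 50 bp. These sign changes were in values that passed no test.

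The 230 bp of limma calls became 130 bp on the authors' scale, 130 bp with the 8 ZT06 libraries alone, 0 bp without the 25% of positions of lowest signal, which held all 23 called positions, and 170 to 710 bp with each mouse left out. The cause of the other changes was not tested.

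The genotypes share no replicate number, so a block could bear only on the shared limma fit and on the comparison of times. Same-numbered mice of different times correlated above 0.1 in 34 of 39 pairs (median r 0.430, lowest -0.545, highest 0.912), and in all 8 pairs with ZT10 and all 8 with ZT14. The labels do not say what a number shares, and the rule used asks for every pair above 0.1, so the numbers were not taken to pair the mice. With the replicate block the called width was 240 bp in place of 230 bp. ZT06 minus ZT22 was then 5.46 points over all peaks and 8.84 in the first decile. The exact permutation p for ZT06 against ZT18 was 0.0571 in place of 0.201 over all peaks (adjusted p = 0.286). In the first decile it was 0.0286 in place of 0.0445 (adjusted p = 0.143). None of the comparisons between times passed after adjustment, with or without the block.

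Limits: 4 mice against 4 allow no exact p below 0.0286, so 20 sets share 1 adjusted p. Signal is averaged over peaks, so single sites were not analysed here. Counting error is at most 2.01% at a central position of the first decile, well below the spread between mice.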

Other observations

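Whole multiples of 1 fragment's signal give the number of peaks averaged in a set. Deciles 2, 4, 7 and 9 and the intergenic set within 10 kb each fitted 1 peak fewer than their names give, and each other set fitted the number in its name or, for the sets of the top 25%, that share of its class. Together these sizes make the all-peak set one of 3216 of the 3217 listed peaks, and they were used for the subtractions.

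The contrast between the top and the bottom of the peak list also differed between the Bmal1-/- mice. First minus last decile was 0.943, -1.46 and -1.93 points in replicates 5, 8 and 9 and -10.3 in replicate 10, against -14.6, -16.9, -14.3 and -10.0 in wild-type replicates 11, 12, 26 and 27. The groups overlapped (difference 10.8 points, exact permutation p = 0.0571).

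Replicate numbers recur across times. Bmal1-/- replicates 9 and 10 lay above replicates 5 and 8 over all peaks at ZT02, ZT06, ZT14 and ZT18. At ZT10 replicate 9 had 76.5% and the other 3 mice had 73.5% to 74.6%. At ZT22 replicate 5 was highest, at 87.5%, with replicates 9 and 10 at 78.9% and 75.1%.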
